A study of Mus musculus with 6 samples.

Results

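The genes described here act in meiosis, the cell divisions that turn diploid germ cells into haploid gametes. A set of 44 gene symbols was looked up in a table of FPKM values, fragment counts scaled by transcript length and by the fragments mapped in each library, from cultured mouse cells. Of these, 42 had a row among 24672 genes, and expression of Ankrd31 and Rnf212 was not analysed here. The members were found in the table by their symbols.

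The samples were 6 poly(A) RNA libraries of C57BL/6 cells kept for more than 20 passages. In the first group were 3 libraries labelled FGSC, female germline stem cells, grown in 10% fetal bovine serum on mitotically inactivated STO cells, a mouse embryonic fibroblast line. Their medium held LIF at 10, EGF at 20, bFGF at 10 and GDNF at 10 ng/mL. The other group held 3 libraries labelled Dif-FGSC, the same kind of cells moved off the STO feeder onto inactivated granulosa cells. Their medium also held 10% serum and bFGF at 10 ng/mL, with BMP4 at 10 ng/mL and retinoic acid at 0.1 µmol/L, and the protocol lists no LIF, EGF or GDNF for it. Feeder cells, growth factors and retinoic acid thus differed together and their parts cannot be told apart. By its title, the series is about retinoic acid and the start of meiosis. The table's columns are named con and dif. The con columns were read as FGSC, so every direction below rests on that reading. Below, FGSC and Dif-FGSC name the libraries by their labels.

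In female germ cells retinoic acid is known to switch on Stra8, which, with partner proteins, starts the meiotic programme. Chromosomes then build an axis on cohesin rings, Spo11 cuts the DNA, strand exchange proteins pair the homologous chromosomes, the synaptonemal complex zips them together and a few breaks mature into crossovers. Most genes of this programme are silent outside germ cells, while a few also serve dividing somatic cells.

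The steps between low FPKM values implied a depth of 17.05 M to 26.9 M fragments per library (M for mega). Correlations of log2(FPKM + 1) across genes, which are not independent replicates, lay at 0.9936 to 0.9963 for libraries of 1 group and at 0.9625 to 0.968 for libraries of different groups. Of 13 germ cell markers, 11 had a mean below 0.1 FPKM. Among these 11, Ddx4, a germ cell helicase, did not exceed 0.0104 FPKM and Dazl, which binds germline mRNA, was listed at 0 in every library, so the defining markers of the labelled cell type were absent or nearly so. The summed level of the 13 was 0.142 to 0.329 FPKM in FGSC and 0.653 to 1.04 in Dif-FGSC, where Zbtb16, listed at 0 in every FGSC library, reached 0.749. Of 12 blood and mast cell markers, 8 had a mean of at least 1 FPKM, with Cpa3 highest at a mean of 294 FPKM. The mast cell markers were not uniform: Fcer1a, Ms4a2 and Hdc had means below 0.1 FPKM. Cma1 stood at 0.0288 FPKM in FGSC and 1.24 in Dif-FGSC. The summed level of the 12 was 837 to 884 FPKM in FGSC and 1060 to 1080 in Dif-FGSC. Of 8 fibroblast feeder markers, 7 had a mean below 0.1 FPKM (summed level 0.316 to 0.591 against 0.0948 to 0.186 FPKM), and Col3a1 and Lum were listed at 0. Of 7 granulosa markers, 5 were listed at 0 in every library, Foxl2 among them (summed level 0.616 to 0.834 against 0.452 to 0.649 FPKM). In bulk RNA, fewer cells of a type and less RNA per cell cannot be told apart.

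Most of the meiotic programme was at or near 0 in both groups. Of the 42 genes, 20 were listed at 0 in every library, 9 more had a mean above 0 but below 0.1 FPKM, 5 lay between 0.1 and 1 FPKM, and 8 had a mean of at least 1 FPKM. Over all 24672 genes the shares were 40.7% at 0, 15.0% below 0.1, 7.19% between 0.1 and 1, and 37.1% at 1 or above, against 47.6%, 21.4%, 11.9% and 19.0% of the 42. The 8 expressed genes, in falling order of mean, were Trip13 (41.3 FPKM), Psmc3ip (21.6), Syce2 (18.3), Mnd1 (11.2), Ythdc2 (3.42), Tex14 (2.02), Prdm9 (1.44) and Mlh3 (1.24). Just below the 1 FPKM line stood Sycp1 at 0.539 FPKM. Each of the 8 rested on an estimated 70.8 fragments or more in every library.

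**Figure D1:**
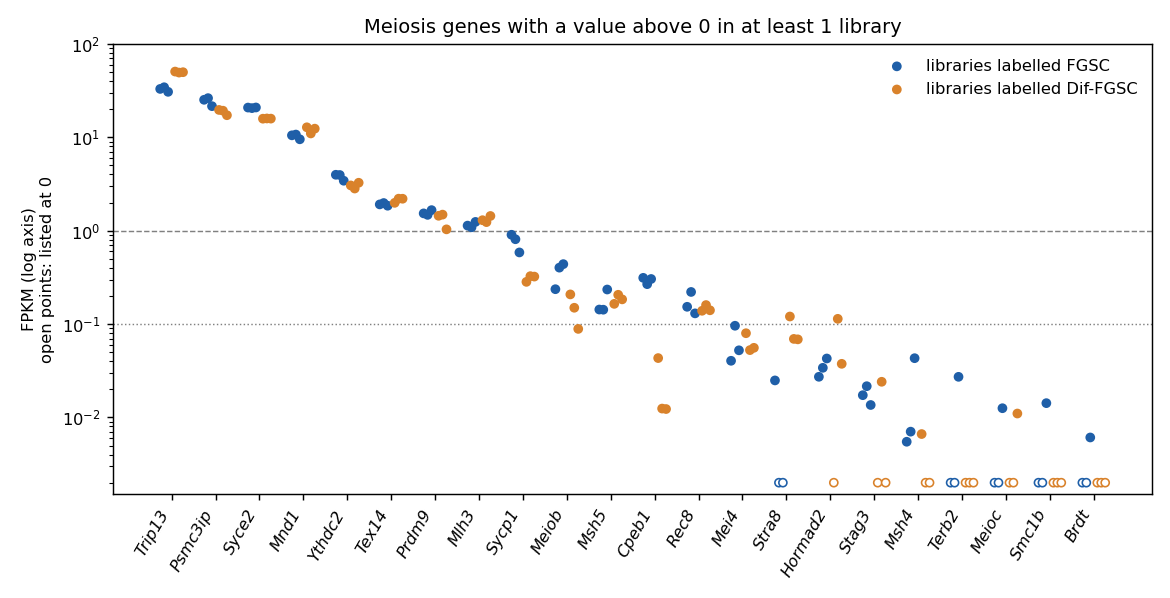
FPKM on a log axis for the 22 meiosis genes with a value above 0 in at least 1 library, with 1 point per library, blue for FGSC and orange for Dif-FGSC; open points at the bottom are values listed at 0. The dashed and dotted lines mark 1 and 0.1 FPKM: 8 genes have a mean above the first, and Cpeb1 shows the widest gap between the groups among those between the lines.

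The 20 genes listed at 0 came from every step except the entry into meiosis. They were the axis and synaptonemal complex genes Sycp2, Sycp3, Syce1, Syce3, Tex12 and Hormad1, the cohesin gene Rad21l, the break-forming genes Spo11, Mei1 and Rec114, and the strand exchange genes Dmc1, Spata22 and Tex15. The crossover genes Hfm1, Cntd1 and Tex11, the telomere attachment genes Majin and Terb1, and Boll and Ccnb3 completed the group. A value of 0 in such a table can be a failed estimate. The floor of 3 fragments in the shallowest library, counting error only, allowed from 0.0209 FPKM for the long transcript of Tex15 up to 0.367 FPKM for the short one of Syce3. The 9 genes with a trace of signal were Stra8, Meioc, Smc1b, Stag3, Hormad2, Mei4, Msh4, Terb2 and Brdt, none of which exceeded 0.12 FPKM or an estimated 5.6 fragments in a library. In the reference annotation (GENCODE M21, GRCm38) exons of Cntd1 overlap those of Becn1, which stood at 10.4 FPKM, and exons of Rec114 overlap those of Nptn, at 10.2 FPKM, in each case on the opposite strand. Both meiosis genes were nevertheless listed at 0.

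Promoter sequences of expressed and silent members were set side by side, because E2F sites and the E-box are known to mark germline genes that repressor complexes keep off in somatic cells. RefSeq windows of build GRCm38.p6, from 250 bases before to 50 after a transcription start, were found for 37 of the 44 symbols, Ankrd31 and Rnf212 among them. A gene with several windows counted as a match if any of them held the letters. To count as holding both motifs, a gene needed them in the same window. Boll, with E2F letters and an E-box in different windows, was therefore not counted as holding both. The letters searched on both strands were TTCCCGC and TTCGCGC for E2F, CACGTG for the E-box and AGGTCA for a single repeat of a retinoic acid receptor site, and the last was added after the values were seen. Capitals mark these letters in the 5 windows below, each printed 5′ to 3′ on the gene's strand. Syce2 and Trip13 are examples of expressed genes, Sycp3 and Tex12 of genes listed at 0, and Stra8 is shown as the known retinoic acid target. Sycp3 and Tex12 are not typical: of 24 members below 0.1 FPKM with a window, 6 held both E2F and E-box letters. Dmc1, Hfm1 and Syce1, for example, were also listed at 0 and held neither. For a gene with several windows, the one with the most kinds of E2F and E-box match is printed.
Syce2 (chr8:84872008-84872307, plus strand): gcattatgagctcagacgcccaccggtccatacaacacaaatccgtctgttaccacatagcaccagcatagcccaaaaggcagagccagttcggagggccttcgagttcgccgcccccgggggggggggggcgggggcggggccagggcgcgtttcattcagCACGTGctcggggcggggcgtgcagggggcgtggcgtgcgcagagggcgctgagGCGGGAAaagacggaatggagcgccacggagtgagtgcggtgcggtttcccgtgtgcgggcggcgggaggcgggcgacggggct
Trip13 (chr13:73937718-73938017, minus strand): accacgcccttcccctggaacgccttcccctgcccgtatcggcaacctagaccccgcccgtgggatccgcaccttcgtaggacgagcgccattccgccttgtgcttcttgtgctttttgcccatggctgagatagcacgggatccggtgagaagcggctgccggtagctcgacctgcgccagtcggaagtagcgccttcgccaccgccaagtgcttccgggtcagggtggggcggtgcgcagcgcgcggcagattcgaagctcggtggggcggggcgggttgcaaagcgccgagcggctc
Sycp3 (chr10:88459337-88459636, plus strand): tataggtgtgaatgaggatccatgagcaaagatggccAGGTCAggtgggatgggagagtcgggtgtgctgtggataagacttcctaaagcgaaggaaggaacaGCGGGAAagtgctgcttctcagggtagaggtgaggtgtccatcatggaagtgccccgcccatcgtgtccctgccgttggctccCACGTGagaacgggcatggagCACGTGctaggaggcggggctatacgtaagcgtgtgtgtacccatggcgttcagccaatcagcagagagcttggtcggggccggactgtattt
Tex12 (chr9:50561219-50561518, minus strand): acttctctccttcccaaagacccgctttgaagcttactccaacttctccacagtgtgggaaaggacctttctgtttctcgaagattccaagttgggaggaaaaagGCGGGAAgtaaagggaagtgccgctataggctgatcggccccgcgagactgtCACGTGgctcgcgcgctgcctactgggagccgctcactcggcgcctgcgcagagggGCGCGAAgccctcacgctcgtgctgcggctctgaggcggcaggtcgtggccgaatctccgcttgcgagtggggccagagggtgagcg
Stra8 (chr6:34920698-34920997, plus strand): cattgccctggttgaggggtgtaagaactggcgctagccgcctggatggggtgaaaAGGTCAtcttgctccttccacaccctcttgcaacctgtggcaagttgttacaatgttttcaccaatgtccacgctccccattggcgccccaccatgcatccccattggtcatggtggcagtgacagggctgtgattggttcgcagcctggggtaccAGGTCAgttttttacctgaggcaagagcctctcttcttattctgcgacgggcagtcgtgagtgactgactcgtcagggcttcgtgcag

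Sycp3 held 1 E2F match and 2 E-boxes, and Tex12 held 2 E2F matches and 1 E-box. Syce2, transcribed in these cells, has 2 windows that overlap. The one printed held 1 of each, 34 and 88 bases before its start, and the other, chr8:84871861-84872160, held neither. The last bases of the printed Syce2 and Tex12 windows were not found in a GENCODE transcript, while those of Trip13, Sycp3 and Stra8 were. The starts used for Syce2 and Tex12 are therefore less certain. Trip13 held neither in its window. The Stra8 window held 2 AGGTCA half-sites, 194 and 38 bases before the start, and neither of the other motifs. Of the 24 members with a mean below 0.1 FPKM that had a window, 11 (45.8%) held E2F letters, 8 (33.3%) an E-box and 6 (25.0%) both: Hormad1, Cntd1, Rec114, Stag3, Sycp3 and Tex12. Of the 7 expressed members with a window, 3 held E2F letters and 1, Syce2, held both. Over all 27025 genes with windows, 6.86% held E2F letters, 8.09% an E-box and 0.692% both (6.0%, 7.15% and 0.603% of 32851 windows). Among the 9381 genes of the table below 0.1 FPKM the share with both was 0.48%, and among the 7368 genes at 1 FPKM or above it was 1.45%. AGGTCA occurred in 16.2% of the members and 18.1% of all genes. As a further description, the median ratio of observed to expected CpG was 0.656 for the silent members and 0.292 for all genes below 0.1 FPKM. It was 0.815 for the expressed members and 0.824 for all expressed genes. A match of letters is a description of these windows and not evidence of binding.

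**Figure D2:**
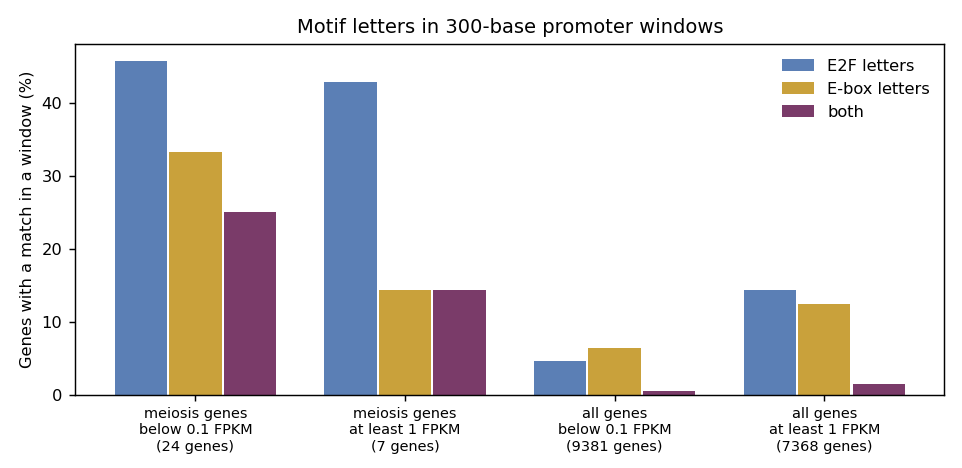
Share of genes (%) whose promoter windows hold E2F letters (blue), E-box letters (yellow) or both (purple), for meiosis genes and all genes of the table, split at 0.1 and 1 FPKM; the number of genes stands under each group. Both motifs occur in the same window in 25.0% of the silent meiosis genes and in 0.48% of all silent genes. The shares are 14.3% of the 7 expressed meiosis genes (1 gene) and 1.45% of all expressed genes.

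Differences between the groups were tested with limma on log2(FPKM + 1), a scale that understates changes of low genes, for genes with a mean of at least 1 FPKM. Calls required a p below 0.05 after Benjamini-Hochberg adjustment over all genes tested. Of the 8 tested members 5 were called, 2 higher (Trip13 and Mnd1) and 3 lower (Syce2, Psmc3ip and Ythdc2) in Dif-FGSC, and Tex14, Prdm9 and Mlh3 were not called. Over all 9162 genes tested, 65.1% were called, 36.5% as higher and 28.6% as lower, so 5 of 8 is a share near that background. The groups did not overlap for 6 of the 8 members and for 70.7% of all genes tested. The median log2 difference was -0.02 for the 8 members and 0.03 for all genes tested, and the median absolute difference was 0.23 and 0.21. With quantile normalization the split of calls was 1 higher and 3 lower for the members and 2789 higher and 3185 lower for all genes, against 3343 and 2622 without it. Median-ratio scaling gave 3061 higher and 2960 lower for all genes and left the members' counts at 2 and 3.

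**Figure D3:**
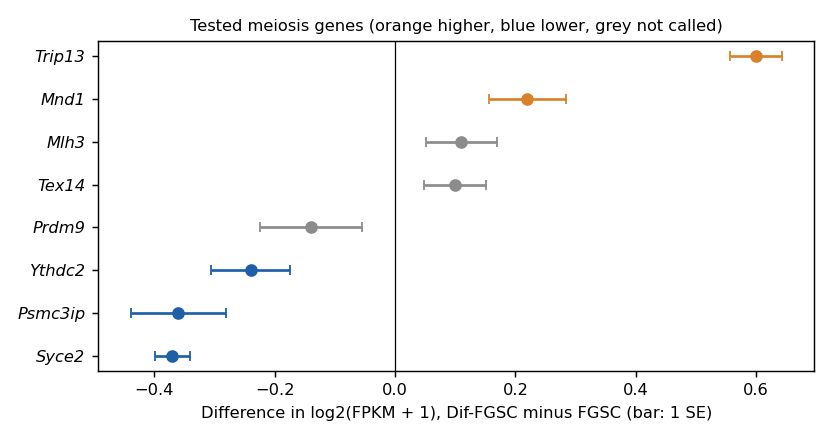
Difference in log2(FPKM + 1), Dif-FGSC minus FGSC, for the 8 tested meiosis genes, with bars of 1 SE from the moderated limma fit; orange points were called higher, blue ones lower and grey ones were not called. The values run from -0.37 for Syce2 to 0.60 for Trip13.

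Of the entry genes, only the one with wider use was expressed. Stra8 was listed at 0.0249, 0 and 0 FPKM in FGSC and at 0.12, 0.0693 and 0.0686 in Dif-FGSC. These values correspond to an estimated 1.2 fragments in all 3 FGSC libraries together and 9.6 in the 3 others, with no library above 4.8, so the groups did not overlap but lay around the floor of 3 fragments per library. Fitted without the filter on low values, where 44.0% of 14637 genes were called, its difference of 0.11 ± 0.023 SE on the log2 scale had a limma adjusted p of 0.0114. The 7 retinoic acid response genes listed with it were low. Cyp26a1, which degrades retinoic acid, did not exceed 0.0286 FPKM, and the summed level was 0.128 to 0.156 FPKM in FGSC and 1.13 to 1.5 in Dif-FGSC, most of it from Tgm2, a transglutaminase, at 1.07 ± 0.184 FPKM (SD, n = 3).

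Meioc, the partner of Ythdc2 that holds germ cells in meiotic prophase, was listed above 0 in 2 libraries only, at 0.0126 and 0.011 FPKM. Ythdc2, an RNA helicase that reads methylated adenosine and is also transcribed in somatic tissue, stood at 3.97, 3.95 and 3.43 FPKM in FGSC and at 3.06, 2.83 and 3.26 in Dif-FGSC. All 3 values of the second group lay below those of the first, by a small margin for FGSC replicate 3. The log2 difference was -0.24 ± 0.065 SE (limma adjusted p = 0.0128).

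Among the cohesins, which hold sister chromatids together, the meiotic subunits were nearly silent. Rec8, the meiotic kleisin, was listed at 0.153, 0.221 and 0.13 FPKM in FGSC and at 0.139, 0.16 and 0.141 in Dif-FGSC, with groups that overlapped (0.537 as limma adjusted p without the filter). Stag3 did not exceed 0.0241 FPKM and Smc1b appeared in FGSC replicate 3 only, at 0.0142 FPKM. Of 5 somatic or shared cohesin genes, 4 were called lower in Dif-FGSC (Rad21, Smc1a, Smc3 and Stag2) and Stag1 was not called. Over all genes tested, 65.1% were called and 28.6% were called lower, and these 5 were not tested as a set. Stag2 went from 7.58 ± 0.282 to 6.53 ± 0.144 FPKM, and Stag1 stood at 3.32 ± 0.0358 and 3.57 ± 0.2 (limma adjusted p = 0.00467 and 0.17). Rad21, the mitotic kleisin, went from 109 ± 1.12 to 96.4 ± 1.67 FPKM (SD), and Smc1a from 67.3 ± 2.02 to 52.3 ± 2.11 (limma adjusted p = 0.000594 and 0.000136). Smc3, shared by mitotic and meiotic rings, fell from 52.5 ± 3.63 to 35.0 ± 0.699 FPKM (limma adjusted p = 4.88e-05).

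The synaptonemal complex was represented by a single abundant transcript. Syce2, a central element protein that pairs with Tex12, was listed at 20.8, 20.6 and 20.9 FPKM in FGSC and at 15.8, 15.9 and 15.9 in Dif-FGSC. The libraries of each group were close together (coefficient of variation 0.836% and 0.276%) and the groups were well apart. The log2 difference was -0.37 ± 0.029 SE (limma adjusted p = 2.77e-05), while Tex12 was listed at 0 throughout.

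Sycp1, the transverse filament of the complex, was low: 0.905, 0.81 and 0.585 FPKM in FGSC and 0.283, 0.326 and 0.323 in Dif-FGSC, an estimated 179 fragments against 65.1 in all. Every value of the second group lay below every value of the first, and its mean was 0.405 times as high. Below the main filter it was not tested. Without that filter the log2 difference was -0.43 ± 0.069 SE (limma adjusted p = 0.00391). Hormad2, an axis protein, reached 0.114 FPKM in Dif-FGSC replicate 2 and was at 0 in Dif-FGSC replicate 1.

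Trip13, the ATPase that removes HORMA-domain proteins from synapsed axes and also releases Mad2 in the mitotic checkpoint, had the highest level and the largest difference of the 8. It was listed at 33.0, 34.4 and 30.7 FPKM in FGSC and at 50.6, 49.4 and 49.9 in Dif-FGSC. The log2 difference was 0.60 ± 0.043 SE (limma adjusted p = 1.76e-05), with every library of the second group above every library of the first. Its mitotic substrate gene Mad2l1 fell from 81.0 ± 1.29 to 65.7 ± 0.133 FPKM (limma adjusted p = 4.17e-05), and the adaptor gene Mad2l1bp, at 15.3 ± 0.696 and 16.7 ± 0.923, was not called (limma adjusted p = 0.0702). Trip13 over Mad2l1 was 0.4, 0.428 and 0.384 in FGSC and 0.77, 0.754 and 0.76 in Dif-FGSC. Proliferation genes, among which Trip13 is often counted, went both ways: of 10 tested, 2 were higher (Cdk1 and Mcm5) and 6 lower. That is 80.0% called, against 65.1% of all genes tested (36.5% higher and 28.6% lower). Mki67, at 57.6 ± 8.42 and 25.4 ± 0.358 FPKM, had the largest log2 difference of the 10, -1.14. The other called falls ran from -0.09 (Ccnb1) to -0.44 (Pcna). The summed level of the 10 was 1190 to 1210 against 998 to 1020 FPKM, and the part of proliferation in the differences of Trip13, Psmc3ip and Mnd1 was not tested.

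Psmc3ip (Hop2) and Mnd1 encode the partners of 1 complex that helps the recombinase Dmc1 in strand exchange, and their transcripts were called in opposite directions. Psmc3ip was listed at 25.2, 26.3 and 21.6 FPKM in FGSC and at 19.7, 19.3 and 17.3 in Dif-FGSC. The groups did not overlap, and the log2 difference was -0.36 ± 0.079 SE (limma adjusted p = 0.00478). Exons of Psmc3ip overlap those of Mlx on the opposite strand by up to 385 bases in the reference, and Mlx stood at 7.68 FPKM, so the value is uncertain if strand was not used in counting.

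Mnd1 was listed at 10.5, 10.7 and 9.53 FPKM in FGSC and at 12.8, 11.0 and 12.4 in Dif-FGSC. Its highest FGSC value and its lowest Dif-FGSC value were close. The log2 difference was 0.22 ± 0.064 SE (limma adjusted p = 0.0196). The call was lost after quantile normalization (limma adjusted p = 0.159) and without FGSC replicate 3 (0.0537), Dif-FGSC replicate 1 (0.0694) or Dif-FGSC replicate 3 (0.0658), in a range of 0.00687 to 0.159 over all alternatives.

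The ratio of Psmc3ip to Mnd1 was 2.4, 2.46 and 2.26 in FGSC and 1.54, 1.75 and 1.39 in Dif-FGSC. A ratio within a library does not depend on a single scaling factor for that library. Quantile normalization can change it, and the ratio was not computed after that step. Its log2 difference was -0.61 (two-sided exact permutation p = 0.1, the smallest that 3 against 3 can give, and 0.15 adjusted over the 6 ratios computed). The ratio of Syce2 to Psmc3ip, genes of different steps, was 0.858 ± 0.0973 and 0.85 ± 0.0607 (SD, n = 3, exact permutation p = 1.0).

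**Figure D4:**
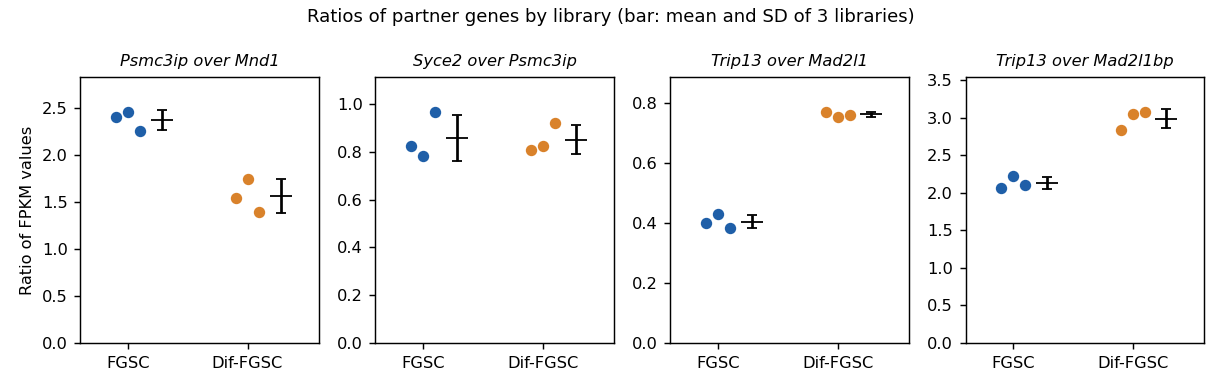
Ratios of FPKM values within each library for 4 pairs of genes, with 1 point per library (blue FGSC, orange Dif-FGSC) and the mean and SD of 3 libraries in black; each axis starts at 0. The groups are apart for Psmc3ip over Mnd1 and for Trip13 over either partner gene, and overlap for Syce2 over Psmc3ip.

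Dmc1, the meiotic recombinase itself, was listed at 0 in every library. Meiob, which binds single-stranded DNA together with Spata22, was listed at 0.236, 0.402 and 0.439 FPKM in FGSC and at 0.208, 0.15 and 0.0888 in Dif-FGSC. The groups did not overlap, but FGSC replicate 1 and Dif-FGSC replicate 1 were close. The estimate was 40.2 fragments against 16.4 in all, and without the filter the log2 difference was -0.24 ± 0.068 SE (limma adjusted p = 0.0317). Spata22 was listed at 0.

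Among genes that place the breaks, Prdm9, the histone H3K4 methyltransferase that sets recombination hotspots, was the expressed one. It was listed at 1.53, 1.48 and 1.66 FPKM in FGSC and at 1.44, 1.49 and 1.03 in Dif-FGSC, with overlapping groups and Dif-FGSC replicate 3 lowest. The log2 difference was -0.14 ± 0.085 SE (limma adjusted p = 0.171), and -0.05 ± 0.06 SE without Dif-FGSC replicate 3 (limma adjusted p = 0.482). Zcwpw1, a reader of the marks that Prdm9 writes, was listed at 4.27, 4.3 and 3.92 FPKM in FGSC and at 9.83, 9.27 and 9.42 in Dif-FGSC. Its log2 difference, 1.02 ± 0.046 SE, was the largest among the further meiosis genes (limma adjusted p = 2.15e-06). Mei4, a break-forming factor, was near 0, at 0.0404 to 0.0959 FPKM in FGSC and 0.0526 to 0.0798 in Dif-FGSC.

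Of the crossover genes, Mlh3, an endonuclease subunit of meiotic recombination and mismatch repair, was listed at 1.13, 1.09 and 1.24 FPKM in FGSC and at 1.3, 1.24 and 1.44 in Dif-FGSC. The groups overlapped and it was not called (log2 difference 0.11 ± 0.059 SE, limma adjusted p = 0.144). Pms2, a MutL relative in mismatch repair, stood at 16.0 ± 0.832 and 16.8 ± 0.0892 FPKM and was not called (limma adjusted p = 0.166). Mlh3 over Pms2 was 0.0727 ± 0.00882 and 0.0787 ± 0.00601 (SD, n = 3, two-sided exact permutation p = 0.4, and 0.48 adjusted over the 6 ratios). Msh5, which stabilises crossover intermediates with Msh4, was listed at 0.143, 0.143 and 0.234 FPKM and at 0.165, 0.206 and 0.184, with overlapping groups. Msh4 did not exceed 0.0431 FPKM. The mismatch repair paralog Msh6 stood far higher and rose from 40.2 ± 1.09 to 53.8 ± 0.659 FPKM (limma adjusted p = 2.07e-05).

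No telomere attachment gene had more than a trace: Terb2 was listed at 0.0272 FPKM in FGSC replicate 3 and at 0 elsewhere. Terf1, the telomere protein that Terb1 binds, fell from 6.0 ± 0.299 to 4.25 ± 0.285 FPKM (limma adjusted p = 0.000378).

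In the remaining group Tex14, a protein of the bridges between germ cells, was listed at 1.91, 1.98 and 1.85 FPKM in FGSC and at 1.99, 2.2 and 2.2 in Dif-FGSC. The groups did not overlap, but the gap was small and the gene was not called (log2 difference 0.10 ± 0.052 SE, limma adjusted p = 0.117). Cpeb1, which controls translation of stored mRNA in oocytes, showed the widest relative gap of the members between 0.1 and 1 FPKM. It was listed at 0.313, 0.268 and 0.304 FPKM in FGSC and at 0.0432, 0.0124 and 0.0123 in Dif-FGSC, an estimated 60.5 fragments against 4.5 in all. Without the filter its log2 difference was -0.34 ± 0.02 SE (limma adjusted p = 9.67e-05), on a scale that compresses values this low. Its paralog Cpeb2 rose from 0.77 ± 0.039 to 1.39 ± 0.163 FPKM (limma adjusted p = 0.000764). Brdt, the testis bromodomain protein, was listed at 0.0061 FPKM in FGSC replicate 3 and at 0 elsewhere, while its relative Brd2, active in many tissues, stood at 21.1 ± 0.235 and 25.2 ± 0.378 (limma adjusted p = 0.000238).

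Without the filter 22 members with a value above 0 could be fitted and 9 were called, 3 higher and 6 lower, which is 4 more than with it: Stra8, Sycp1, Meiob and Cpeb1. The share of 9 in 22 is near the background of 44.0%.

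The somatic counterparts, a list of 32 paralogs and partners, mostly stood at 1 FPKM or above. Of the 32, 30 were tested, of which 9 were higher, 16 lower and 5 not called (83.3% called, against 65.1% of all genes tested), with a median log2 difference of -0.09 against 0.03 for all genes tested. Among the largest differences were those of Smc3, Setd1a, Cpeb2, Terf1 and Msh6. Setd1a, an H3K4 methyltransferase, rose from 21.9 ± 0.77 to 30.6 ± 0.169 FPKM (limma adjusted p = 1.92e-05). Its exons overlap those of the annotated gene Gm49388 on the same strand, so its value is uncertain.

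**Figure D5:**
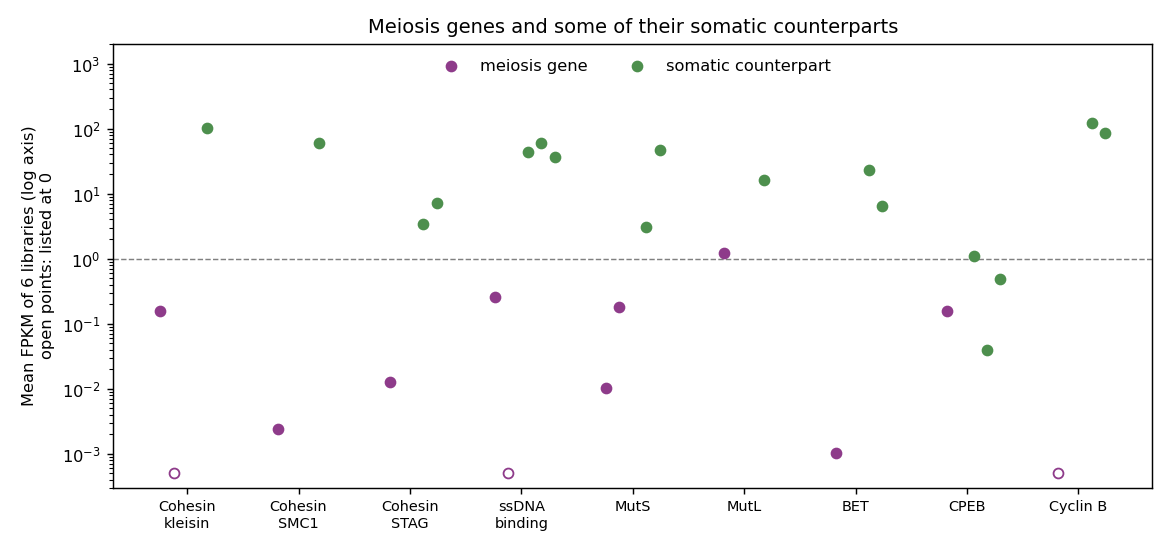
Mean FPKM of the 6 libraries, log axis, for meiosis genes (purple) and some of their somatic counterparts (green) in 9 protein families; open points are listed at 0. Rec8 is at 0.157 and Rad21 at 103.0 FPKM, and among the meiosis genes shown Mlh3 alone stands above 1 FPKM.

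Further meiosis genes outside the 44 were read from a list of 63 symbols, older and newer names included, of which 49 had a row. Of these 49, 30 were tested, of which 7 were higher, 14 lower and 9 not called (70.0% called, a share near the 65.1% of all genes tested), with a median log2 difference of -0.05. Several of the 30 also serve DNA repair or mitosis in somatic cells. Besides Zcwpw1, the largest differences were falls. Meikin, a kinetochore protein described in meiosis, was listed at 14.9, 15.0 and 18.1 FPKM in FGSC and at 10.7, 10.6 and 10.2 in Dif-FGSC (log2 difference -0.56 ± 0.073 SE, limma adjusted p = 0.000357). FGSC replicate 3 was highest and the groups did not overlap. Sgo2a, a guardian of centromeric cohesin, fell from 7.53 ± 0.595 to 4.89 ± 0.169 FPKM, and its exons overlap those of Kctd18 on the opposite strand. Hells, a chromatin remodeller that works with Prdm9, fell from 60.7 ± 2.22 to 42.4 ± 0.465 FPKM, Blm, a helicase that unwinds recombination intermediates, from 14.7 ± 0.266 to 10.4 ± 0.147, and Rad51ap1, a recombinase cofactor, from 12.5 ± 0.902 to 8.97 ± 0.191. Of the 49, 16 were below 0.1 FPKM or listed at 0. Among these the break-forming factor Ccdc36 (Iho1) stood at no more than 0.0478 FPKM and Gm960 (Top6bl) at no more than 0.0668.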

How the data were processed

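RNA from 3 libraries labelled FGSC and 3 labelled Dif-FGSC was measured with a KAPA stranded mRNA kit, per the labels' protocols. The authors deposited FPKM values with 24674 rows, and HISAT2 4.8.2, Cufflinks 2.2.1 and mm9 are named, without roles, per the submitters' processing notes. For the annotation and the strand setting, nothing is given in the sources used here. Of rows sharing a symbol (2 symbols), the one with the larger mean was used.

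From the deposited values, log2(FPKM + 1) was tested in R 4.3.3 with limma 3.58.1 (lmFit, eBayes with an intensity trend, two-sided) for genes with a mean of at least 1 FPKM over the 6 libraries, with Benjamini-Hochberg adjustment over all 9162 genes. The script was tested on simulated data. The labels do not say whether the replicates are separate cultures. The p-values therefore reflect the scatter among these libraries alone, possibly technical. Depth was estimated from low values of genes with 1 annotated transcript in GENCODE M21 (69.4% to 73.7% of low values within 0.1 of a whole number of fragments, the step being set on the same values), and numbers of fragments use the longest transcript. No coordinates of the table's genes are given, since the reference is GRCm38. The RefSeq windows carry their own build.

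The members and lists were chosen with earlier results of these data known. Named were all members (those below 0.1 FPKM by their highest value or range), the 6 largest called differences of each further list and counterparts of named members, and some of these are not reported here. The 6 ratios, the values of Ccdc36 and Gm960 and the markers named singly were chosen for print after they were seen. Alternatives changed the pseudocount, filter, scaling, variance trend and replicate block, and left out each library.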

Additional observations from a re-analysis of the deposited data

How the results depend on the processing

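Of the 8 tested members and 12 further genes taken by the rule for named genes, none changed direction in 315 refits, and 311 of these refits also left the call as it was. The other 4 concern Mnd1 and are given beside it. With no filter on low values 9 members were called instead of 5, also with a pseudocount of 0.1 (9), an alternative chosen after seeing the data. In these 2 settings 22 members could be fitted instead of 8. The counts for all genes, for the somatic counterparts and for the further meiosis genes stayed within 1.5 times under every alternative run. With the replicate number as a block, 5798 genes, 5 members, 25 counterparts and 18 further genes were called. Deviations of same-numbered libraries correlated at 0.131, 0.0123 and 0.173, and those of differently numbered libraries at -0.218 to 0.106. FGSC replicates 1 and 3 correlated best with their own number, and FGSC replicate 2 with Dif-FGSC replicate 1. The numbers were not taken to pair the libraries, but these low values do not settle whether they do. The number of members at 1 FPKM or above was 9 with a limit of 0.5 FPKM and 8 with the other limits tried. Values near 3 fragments, such as those of Stra8, limit what can be said of the members below 0.1 FPKM.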
